A study of Mus musculus with 6 samples.

Results

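The NF-kappaB factors and their feedback genes were followed in satellite cells, the stem cells of skeletal muscle, from pharyngeal and limb muscle. The set holds 10 genes: the Rel-domain factors Nfkb1, Nfkb2, Rela and Relb, the IkappaB genes Nfkbia, Nfkbib, Nfkbiz and Bcl3, and the TNF-induced genes Tnfaip2 and Tnfaip3. They were chosen by their role in the pathway, with the pharyngeal against limb intensities of these same arrays already known, among them the large Tnfaip2 difference. The differences of these genes are therefore given as a description, with no p-value. Of 45281 probes on the array, 12 carry the symbol of one of these genes, and together they cover 9 of the 10. No probe used here is named for Nfkb1, which therefore has no value. All 12 probes had a detection p-value under 0.05 on at least 3 of the 6 arrays and so passed the filter on dim probes. Probe sequences and positions were not used here.

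The arrays hold 3 pools of sorted cells from pharyngeal muscle and 3 pools from limb muscle (gastrocnemius and quadriceps). All came from male C57BL/6 mice aged 8 to 10 weeks, with no treatment named in the labels. Each pool held 150000 to 200000 cells from 10 to 30 animals, so that a value is an average over many mice, and p-values measure the spread between pools. The RNA went through 1 round of amplification before hybridisation to Illumina MouseWG-6 v2.0 arrays, which were scanned on a single chip with the pharyngeal pools on its first 3 positions, so that position and group cannot be told apart.

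NF-kappaB is a family of dimeric transcription factors built from subunits that share the Rel domain. In resting cells IkappaB proteins hold the dimers in the cytoplasm, and signals from TNF, interleukin 1 or Toll-like receptors lead to the destruction of IkappaB, so that the dimers enter the nucleus and bind kappaB sites. Several of the genes they switch on encode their own inhibitors, which closes a feedback loop. In muscle the classical pathway is known for holding back myogenic differentiation and for driving cytokine production. The arrays measure RNA, and the regulation of these factors by degradation and transport is not seen on them.

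RefSeq promoter windows of GRCm38.p6, covering 250 bases before to 50 after a start site, were available for 7 of the 10 genes (Nfkb2, Rela, Nfkbia, Nfkbib, Bcl3, Tnfaip2 and Tnfaip3). They were searched on both strands for the 10-base kappaB consensus bound by the classical dimer, GGGRNNYYCC (R is A or G, Y is C or T, N is any base). Matches were present for 5 of the 7 genes, against 9.55% of all 27025 genes in the same table, and the windows of Rela and Nfkbib held none. The trait is not particular to the members. In the lists of other pathway genes used below the share was 75% for other Rel and IkappaB genes and 42.9% for target genes. It was 35.7% for other negative regulators and 10% to 15% for the rest. Nfkb2 has 3 windows and Tnfaip3 has 2, which gives them more room for a match. The 10 windows of the 7 genes had a median GC content of 64.5%, against 52.7% over all windows, and the part of GC content in the matches was not tested. A match describes the letters and does not show that a factor binds there. One match per gene, and a second for Nfkb2, are shown with 25 bases on each side, read along the gene's strand, because these are the genes whose levels are compared below. Capitals mark the match, which for Nfkbia, Tnfaip3 and Tnfaip2 fits the consensus only when read on the opposite strand.
Nfkb2, chr19:46304673-46304732, plus strand, first base of the match at -39: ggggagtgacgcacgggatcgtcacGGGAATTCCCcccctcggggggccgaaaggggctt
Nfkb2, second start site, chr19:46305680-46305739, plus strand, first base at 11: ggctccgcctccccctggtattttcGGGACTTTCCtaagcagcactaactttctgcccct
Nfkbia, chr12:55492642-55492701, minus strand, first base at -29: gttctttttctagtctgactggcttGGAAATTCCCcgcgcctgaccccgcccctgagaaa
Tnfaip3, chr10:19015388-19015447, minus strand, first base at -12: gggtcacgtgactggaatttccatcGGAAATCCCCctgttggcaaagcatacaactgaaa
Bcl3, chr7:19822719-19822778, minus strand, first base at 3: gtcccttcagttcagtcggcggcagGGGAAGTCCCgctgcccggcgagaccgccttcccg
Tnfaip2, chr12:111442612-111442671, plus strand, first base at -24: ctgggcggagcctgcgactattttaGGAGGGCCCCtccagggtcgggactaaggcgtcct

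The labelled cell type was compared with its markers before the members were described. All 11 satellite cell markers tested were lower in the pharyngeal pools and 6 of them passed the threshold (limma, adjusted p under 0.05), with the lowest difference for Calcr (-2.43 on the log2 scale) and then Cdh15 (-2.29). Of 16 epithelial markers 8 rose, led by Krt14 (5.52) and Krt5 (5.06), and among them Krt13, Krt15 and Krt4 were above background on no limb array. Of 8 thyroid and parathyroid markers listed, 6 had a named probe and 3 were tested. These 3 (Tg, Pth and Chga) were detected on no limb array and passed the filter through the pharyngeal arrays alone. Their rise was thus nearly fixed by the filter. Tg was at least 57.0-fold and Chga at least 9.40-fold higher. Of 9 myeloid markers 2 rose, S100a9 (at least 9.55-fold) and Lyz1 (1.99), and Lyz2 (1.82) did not pass. S100a9 also passed the filter through the pharyngeal arrays alone. Adgre1, Csf1r, Tyrobp, Aif1 and C1qb were above background on 1 or 2 arrays of each group, and none passed. The macrophage genes C1qa and Itgam were above background on no array. The lymphocyte genes Cd3d, Cd3e, Cd3g, Cd7 and Nkg7 were also above background on no array, and of 2 lymphocyte (Ms4a1 and Cd2), 9 endothelial and 8 fibroblast-type markers tested none passed the limma threshold. The largest differences there were -1.76 (Tek) and -0.58 (Cldn5) for endothelial and -0.87 (Col1a1) and 0.65 (Lum) for fibroblast-type genes. Of 17 immediate early genes that respond to tissue dissociation, Junb (-1.40) fell and no other passed, Btg2 included (-0.74). Deposited intensities were also summed over 1 probe per listed gene with a named probe, detected or not, with no background removed. This took 19 epithelial, 17 myeloid and 11 satellite cell genes. Each probe adds a floor, as the lowest intensities of the arrays were 76.1 to 82.1 units, so that ratios of these sums do not measure signal. Summed deposited intensities were 5175 to 12472 in pharyngeal and 2172 to 2304 in limb pools for the epithelial list. They were 3008 to 4403 against 1695 to 2237 for the myeloid list and 4504 to 5389 against 6258 to 10064 for the satellite cell list. In such pools fewer cells of a type and less RNA per cell cannot be told apart.

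Across the members the pharyngeal pools were the higher ones in 8 of 9 genes. The median difference, pharyngeal minus limb, was 0.69 on the log2 scale, against -0.06 over all 11262 genes tested. Tnfaip2, Tnfaip3 and Nfkb2 were the 3 members past the threshold, all higher, where the background was 3.32% of all genes in either direction, 1.71% higher and 1.61% lower. Every pharyngeal pool lay above every limb pool for 6 of the 9 members and for 11.7% of all genes. The list was drawn up with this contrast known, so these counts describe it and are no evidence about it. The number past the threshold was 2, 2 and 3 without pharyngeal pool 1, 2 and 3, and 1 without any 1 limb pool, where Tnfaip2 alone was left. Among all genes the number was 374 with all pools. Without pharyngeal pool 1, 2 and 3 it was 309, 266 and 361. Without limb pool 1, 2 and 3 it was 83, 62 and 58.

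**Figure D1:**
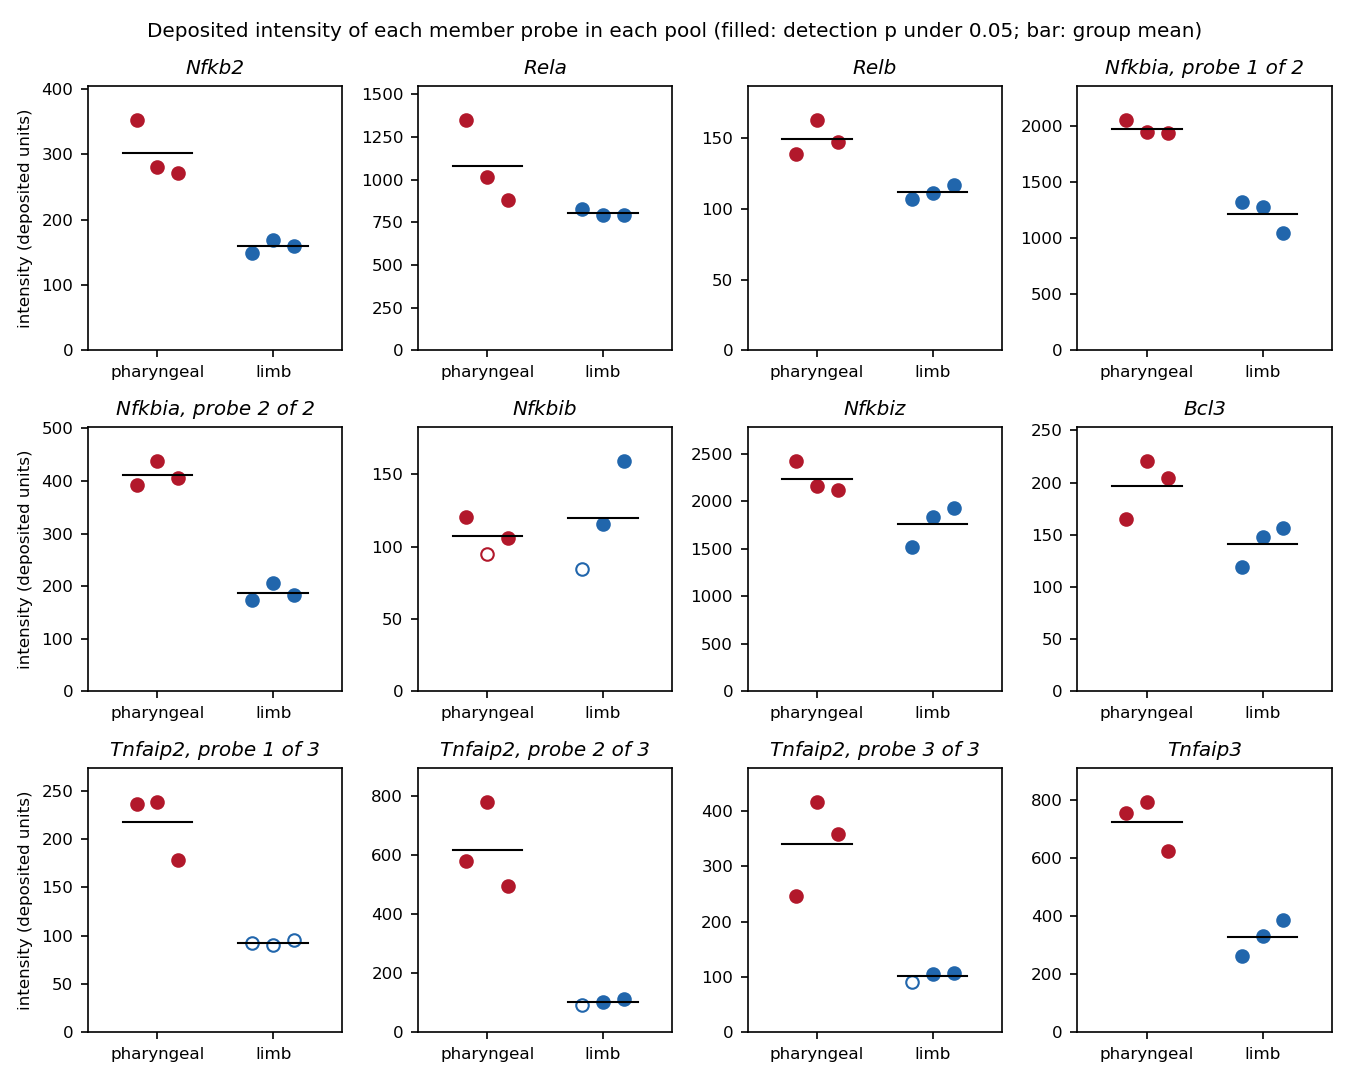
Deposited intensity (vertical axes, from 0, arbitrary units) of the 12 probes named for a member, 1 panel per probe, for the 3 pharyngeal pools (red) and the 3 limb pools (blue); filled points had a detection p-value under 0.05 and bars are group means. Tnfaip2 separates the groups on each of its 3 probes, and Nfkbib overlaps.

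Among the Rel-domain factors of the set with a probe (Nfkb2, Rela and Relb), Nfkb2 had the largest difference. Nfkb2 encodes p100, which is processed to p52 and is both a subunit of the alternative pathway and, unprocessed, an inhibitor. Its probe read 352, 281 and 272 intensity units in the pharyngeal pools and 149, 168 and 160 units in the limb pools. All pharyngeal values were thus above the limb values, and the limb pools were close together. After background correction and quantile normalization the pharyngeal mean was 7.69 ± 0.20 and the limb mean 6.50 ± 0.01 (SD of log2 values, n = 3 each), a difference of 1.19 (SE 0.19) or 2.29-fold. Its size moved with the background step, to 0.76 when none was removed, and it lay between 1.09 and 1.29 without any 1 pool.

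Relb, the partner of p52 and itself a target of NF-kappaB, was dim. It read 139, 162 and 147 units in the pharyngeal pools and 107, 111 and 117 units in the limb pools, above background on all 6 arrays. The groups did not overlap, and the normalized difference was 0.79 (SE 0.23), with a pharyngeal mean of 6.05 ± 0.32 and a limb mean of 5.26 ± 0.20 (SD of log2 values, n = 3 each). With no background removed it fell to 0.32, and with a larger offset to 0.48, since the offset draws dim values together.

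Rela encodes p65, the main activating subunit of the classical pathway. Its probe read 1346, 1015 and 878 units in the pharyngeal pools and 826, 790 and 793 units in the limb pools. On the deposited scale every pharyngeal pool was higher, with pharyngeal pool 1 furthest up. After normalization the groups overlapped, at 10.16, 9.79 and 9.71 in pharyngeal and 9.78, 9.41 and 9.52 in limb pools on the log2 scale. The difference was 0.32 (SE 0.21), or 1.24-fold, and ranged from 0.18 without pharyngeal pool 1 to 0.42 without limb pool 1.

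Of the cytoplasmic inhibitors, Nfkbia encodes IkappaBalpha, the inhibitor that is degraded and then made again within the classical feedback loop. The brighter of its 2 probes, ILMN_1218605, read 2049, 1943 and 1941 units in the pharyngeal pools and 1326, 1274 and 1043 units in the limb pools. The groups stood apart, with a normalized difference of 0.69 (SE 0.20), or 1.62-fold. The dimmer probe, ILMN_3001914, read 393, 437 and 406 units in the pharyngeal pools and 174, 207 and 183 units in the limb pools. Its difference of 1.37 (SE 0.19, from a fit over all kept probes), or 2.59-fold, had the same sign and was larger, and both probes were above background on all 6 arrays. With the mean of both probes in place of the brighter one the gene's difference was 1.03.

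Nfkbib, which encodes IkappaBbeta, was the member that was lower in the pharyngeal pools on average. It read 121, 95.3 and 106 units in the pharyngeal pools and 84.7, 116 and 159 units in the limb pools, and was above background on 2 of 3 arrays in each group. The groups overlapped and limb pool 3 was the highest of all. The normalized difference was -0.52 (SE 0.53), smaller than its own error, and it was 0.06 without limb pool 3 and -1.06 without limb pool 1.

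Nfkbiz and Bcl3 encode atypical IkappaB proteins that act in the nucleus, where IkappaBzeta is needed for the induction of Il6 and other secondary response genes and Bcl-3 binds p50 and p52 dimers. Nfkbiz was bright, at 2416, 2159 and 2112 units in the pharyngeal pools and 1515, 1830 and 1930 units in the limb pools. The groups did not overlap, yet the normalized difference was 0.32 (SE 0.17), or 1.25-fold, and stayed between 0.29 and 0.37 in every alternative run. Bcl3 read 165, 220 and 205 units in the pharyngeal pools and 119, 148 and 156 units in the limb pools. On the deposited scale its groups stood apart, and after normalization they overlapped, at 6.19, 6.99 and 7.08 in pharyngeal and 5.71, 6.12 and 6.43 in limb pools (log2), a difference of 0.67 (SE 0.31).

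Tnfaip3 encodes A20, a ubiquitin-editing enzyme that ends signalling from TNF and Toll-like receptors. It read 755, 791 and 623 units in the pharyngeal pools and 261, 333 and 387 units in the limb pools. The lowest pharyngeal pool was well above the highest limb pool. The normalized pharyngeal mean was 9.26 ± 0.11 and the limb mean 8.05 ± 0.27 (SD of log2 values, n = 3 each), a difference of 1.21 (SE 0.21) or 2.31-fold. It ranged from 1.10 to 1.36 without any 1 pool and was 1.01 with no background removed.

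Tnfaip2, a TNF-induced gene whose product M-Sec takes part in the formation of membrane nanotubes, had the largest difference of the members. Its brightest probe, ILMN_2841289, read 582, 780 and 497 units in the pharyngeal pools and 93.1, 103 and 112 units in the limb pools. The limb values lay close to the lowest intensities of the arrays, which were 76.1 to 82.1 units, and limb pool 1 was not above background. The normalized difference was 4.15 (SE 0.28), or 17.7-fold, and its size depends on how the background is treated, since it was 3.10 with a larger offset and 2.47 with none removed. The probe ILMN_2841290 read 246, 415 and 359 units in the pharyngeal pools and 91.6, 106 and 107 units in the limb pools, with limb pool 1 again not above background (detection p-value 0.221). Its difference was 3.09 (SE 0.34, from the fit over probes). The probe ILMN_2474858 read 236, 238 and 179 units in the pharyngeal pools and 91.9, 89.9 and 95.1 units in the limb pools. No limb array detected it, so that only a bound can be given: the pharyngeal level was at least 5.28-fold that of limb pools. The bound sets the mean of the pharyngeal pools against the higher of the probe's own value and the lowest value above background on each limb array. All 3 probes separated the groups, but they read the same pools and do not count as separate evidence. ILMN_2474858 passed the filter through the pharyngeal arrays alone.

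**Figure D2:**
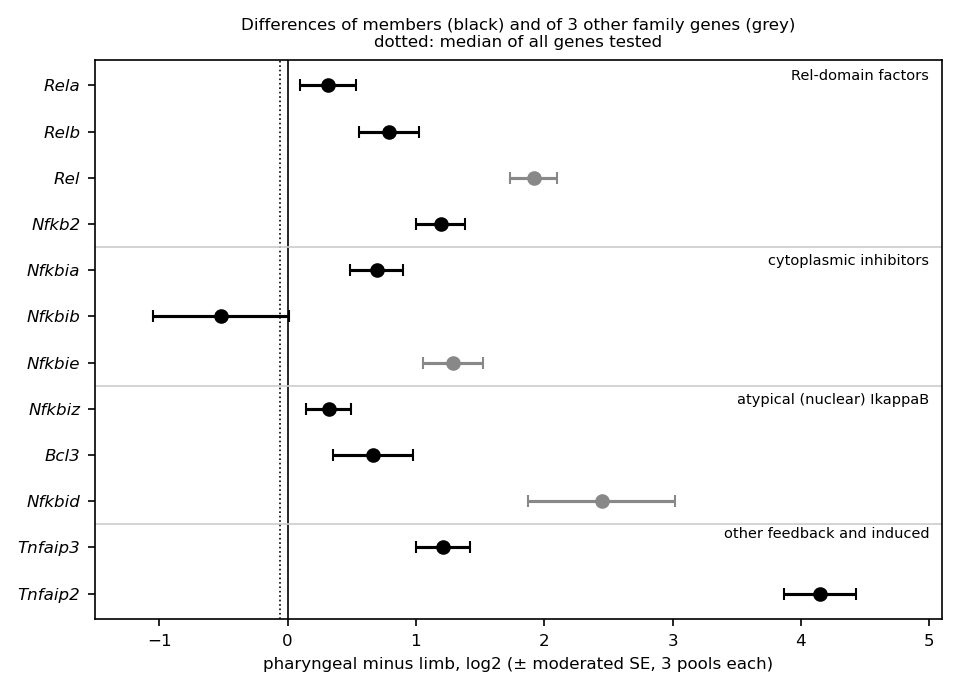
Difference, pharyngeal minus limb, on the log2 scale (horizontal axis) with the moderated standard error (bars) for the 9 members with a probe (black) and for Rel, Nfkbie and Nfkbid (grey), by role; 3 pools per group. Tnfaip2 lies at 4.15 and Nfkbib at -0.52, with the other members between 0.32 and 1.21; the dotted line is the median of all genes, -0.06.

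The spread within a group differed between members. Nfkbiz varied least within the pharyngeal pools (SD 0.04 on the log2 scale), followed by Nfkbia (0.06) and Tnfaip3 (0.11), and Bcl3 varied most (0.49). In limb pools the SD was 0.01 for Nfkb2 and 1.13 for Nfkbib. Across the 3 pharyngeal pools the mean of the 16 epithelial markers was 6.77, 7.18 and 8.65, against 5.01 to 5.13 in limb pools. That of the 9 myeloid markers was 5.96, 6.01 and 6.59, against 5.05 to 5.52. The mean of the 3 thyroid and parathyroid markers was 7.45, 8.69 and 9.20, against 4.29 to 4.32. The mean of each list was highest in pool 3 and above every limb pool in pools 1 and 2 as well. Leaving out pool 3 therefore does not remove the difference of these means. Of the 9 myeloid genes only 3 (S100a9, Lyz1 and Lyz2) had every pharyngeal pool above every limb pool, and the others overlapped. The members differed in which pool was highest. On the same normalized log2 scale Nfkbia (10.83, 10.89 and 10.94) and Bcl3 (6.19, 6.99 and 7.08) had the same order of pools as these marker means. Nfkbiz (11.07, 11.01 and 11.08) was also highest in pool 3. Pool 2 was highest for Tnfaip2 (8.80, 9.34 and 8.80), Tnfaip3 (9.25, 9.37 and 9.16) and Relb (5.68, 6.27 and 6.20). Pool 1 was highest for Nfkb2 (7.89, 7.49 and 7.68), Rela (10.16, 9.79 and 9.71) and Nfkbib (5.19, 4.42 and 4.79). Without pharyngeal pool 3 the differences were 4.24 for Tnfaip2, 1.26 for Tnfaip3, 1.20 for Nfkb2, 0.72 for Relb, 0.67 for Nfkbia, 0.50 for Bcl3, 0.41 for Rela, 0.31 for Nfkbiz and -0.51 for Nfkbib. The part of epithelial, thyroid or myeloid cells in the differences between groups was not tested.

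**Figure D3:**
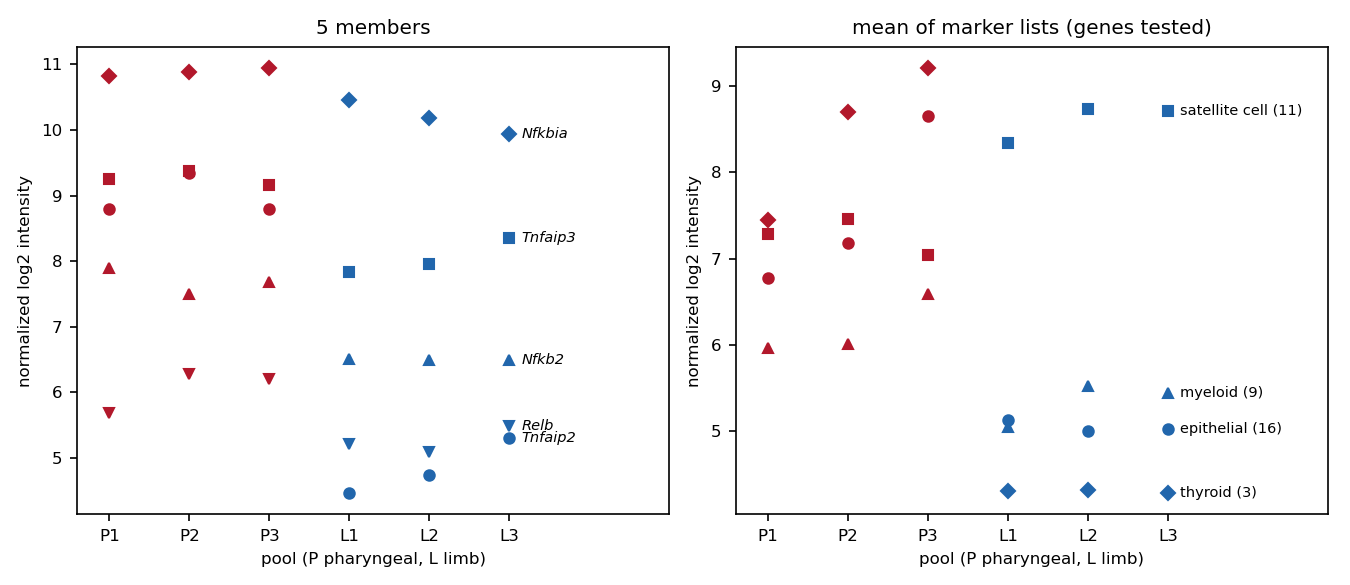
Normalized log2 intensity (vertical axes) in each pool for 5 members (left) and for the mean of 4 marker lists with the number of genes tested (right); red points are the 3 pharyngeal pools and blue points the 3 limb pools, and pools have no order within a group. The epithelial mean was 8.65 in pharyngeal pool 3, where Nfkbia was at its highest (10.94) and Tnfaip3 at its lowest (9.16) of the pharyngeal pools.

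The genes most like a member over the 6 arrays were found by the root mean square difference of log2 profiles, each centred on its own mean. For Tnfaip2 they were the transcription factor Tfap2c (0.44), Wfdc18 (0.49) and the BMP antagonist Grem1 (0.56). For Nfkbia they were Irgq, Htra1 and Pop5 (0.07, 0.07 and 0.08). For Nfkbiz they were the splicing factor Srsf4, the lactate dehydrogenase gene Ldha and Ist1 (0.04, 0.04 and 0.05). A small difference between groups makes such likeness easy to reach, and the measure carries no test.

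Other genes of the pathway were read from lists of family members, kinases and adaptors, negative regulators, receptors, ligands and target genes. Of 125 such genes outside the members 84 were tested, of which 13 rose and 1 fell (limma, adjusted p under 0.05). This was 16.7% of them, against 3.32% of all genes tested, 1.71% higher and 1.61% lower. The lists were drawn up with earlier results of these data known, so this share describes them and is no evidence about the pathway. The median difference of the 84 genes was 0.16, against -0.06 over all genes tested. The rises were held mainly by the family and target lists, and the kinases, adaptors, receptors and ligands had few or none. The count of 14 became 8, 9 and 8 without pharyngeal pool 1, 2 and 3, and 5, 3 and 3 without limb pool 1, 2 and 3. The count of all genes past the threshold also fell in these fits, from 374 to between 58 and 361.

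**Figure D4:**
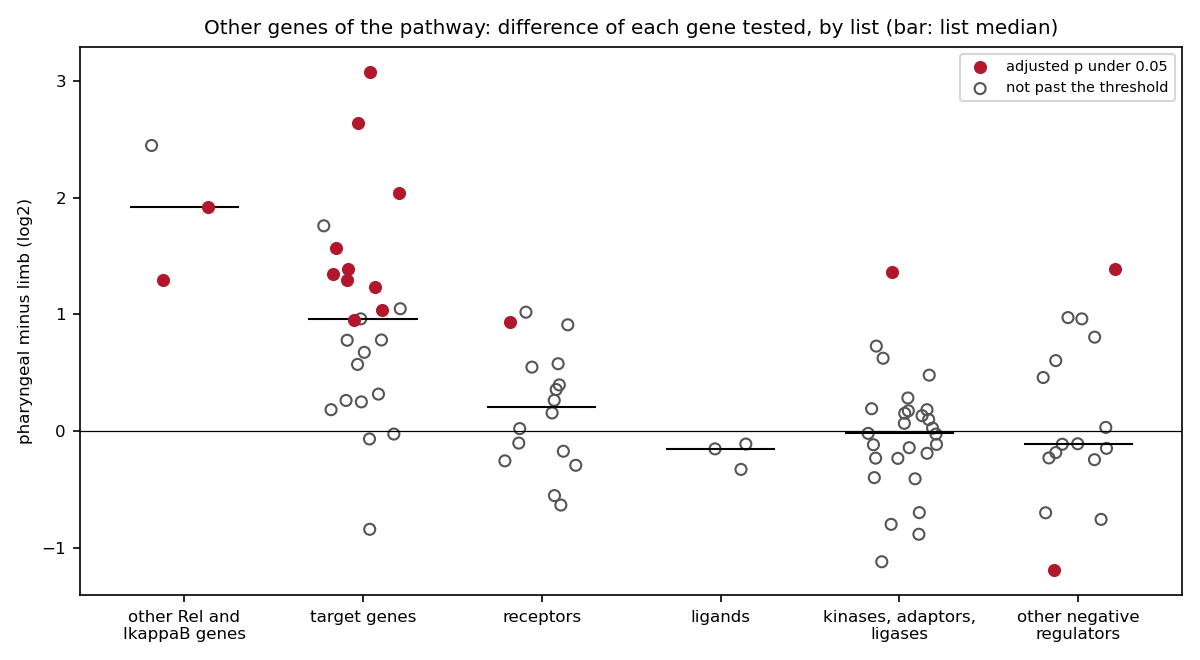
Difference, pharyngeal minus limb, on the log2 scale (vertical axis) of each gene tested, in 6 lists of other pathway genes; filled red points passed an adjusted p of 0.05, open points did not, and bars are list medians. The list medians were 1.92 for other Rel and IkappaB genes and 0.96 for target genes, against -0.15 to 0.21 for the rest; Nfkbie, Tnip1, Zc3h12a, Traf1 and Birc3 stand in more than 1 list.

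Of the remaining Rel and IkappaB genes 2 of 3 tested rose, where 1.71% of all genes did. Rel encodes c-Rel, a subunit best known from lymphocytes. It read 7.58, 7.69 and 7.40 in the pharyngeal pools and 5.69, 5.60 and 5.63 in the limb pools (normalized log2). The groups stood far apart next to their spread, with a difference of 1.92 (SE 0.18, limma adjusted p = 0.00368), or 3.78-fold, and Rel passed in each of the 17 alternatives. Nfkbie, which encodes IkappaBepsilon, rose by 1.29 (SE 0.24, adjusted p = 0.0324) but passed in 1 of 6 fits without 1 pool, with a highest adjusted p = 0.165. Nfkbid, picked out after its values were seen, had the larger difference of 2.45 (SE 0.57) with a wide spread, at 8.56, 7.38 and 6.58 in pharyngeal and 5.85, 5.09 and 4.24 in limb pools, and did not pass (adjusted p = 0.0676). Nfkbil1 had a named probe and was not tested, as it missed the filter.

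Of 24 target genes tested 10 rose and none fell, against 1.71% and 1.61% of all genes, with a median difference of 0.96. Several of the risen chemokine genes were known from these arrays when the list was drawn up, so that the list is not independent evidence of its direction. Cxcl2, a neutrophil attractant, rose by 3.08 (SE 0.29) and the monocyte attractant Ccl2 by 2.64 (SE 0.22), and both passed in each of the 17 alternatives. The adhesion molecule gene Icam1 read 10.05, 9.91 and 10.05 in the pharyngeal pools and 8.66, 7.66 and 7.57 in the limb pools on the normalized log2 scale. Its difference was 2.04 (SE 0.31, limma adjusted p = 0.0169) and lay between 1.74 and 2.39 over the alternatives. The call was lost when limb pool 2 or limb pool 3 was left out and with no filter on dim probes (limma, highest adjusted p = 0.0983). Il6, a cytokine gene that depends on IkappaBzeta, read 11.51, 11.57 and 11.51 in the pharyngeal pools and 10.44, 10.36 and 10.08 in the limb pools. It rose by 1.24 (SE 0.19, limma adjusted p = 0.0173), and the difference lay between 1.13 and 1.31 over the alternatives. Il6 did not pass without any 1 limb pool or with a replicate block (limma, highest adjusted p = 0.114). Ccl7 rose by 1.57 (SE 0.21), and by 1.44 to 1.69 over the alternatives. Leaving out limb pool 2 or limb pool 3 removed its call (limma, highest adjusted p = 0.0835).

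The remaining risen targets were Tnip1, Nfkbie, Csf1 (1.35), Gadd45b (1.04) and Csf2, of which the last 3 were picked out after their values were seen, to complete the count. No limb array detected Csf2, and its pharyngeal level was at least 1.51-fold that of limb pools (limma adjusted p = 0.0469). Csf2 passed the filter through the pharyngeal arrays alone. Its place in the count of risen targets thus rests on the group where it was high. Also picked out after their values were seen, and not past the threshold, were the chemokine gene Cxcl1 (0.67), the mitochondrial dismutase gene Sod2 (0.78) and the adhesion molecule gene Vcam1 (-0.84). Tnf, Il1b and Nos2 were above background on no array.

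Among 27 kinases, adaptors and ubiquitin ligases 1 rose, where 1.71% of all genes did, with a list median of -0.02. The risen gene was Map3k8, the kinase Tpl2 that p105 holds inactive, with a difference of 1.36 (SE 0.25, limma adjusted p = 0.0345). With the mean of its probes in place of the brightest the difference was 0.70 (limma adjusted p = 0.295). It passed in 1 of 6 fits without 1 pool, and did not pass with no filter on dim probes (0.0665) or with a replicate block (0.0914). Map3k14, the kinase NIK of the alternative pathway, was picked out after its values were seen and lay at -1.12 (adjusted p = 0.0724).

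Among 16 other negative regulators 1 rose and 1 fell, where 1.71% and 1.61% of all genes did. Tnip1 encodes ABIN1, a partner of A20, and read 8.40, 7.74 and 8.22 in the pharyngeal pools and 6.67, 6.79 and 6.74 in the limb pools. It rose by 1.39 (SE 0.23, limma adjusted p = 0.0217), and by 0.96 to 1.58 over the alternatives. The call was lost without pharyngeal pool 3, without any 1 limb pool and with a replicate block (limma, highest adjusted p = 0.120). No pharyngeal array detected N4bp1, whose limb level was at least 2.02-fold the pharyngeal one (adjusted p = 0.0322). That call was lost without any 1 pharyngeal pool, with a larger offset, with no background removed, in the processed table and with a replicate block (highest adjusted p = 0.107). The N4bp1 probe passed the filter through the limb arrays alone, the group where it was high, and the count of 1 fall rests on it. Without 1 limb pool this probe missed the filter. Zc3h12a, which encodes the RNase Regnase-1 and was also picked out after its values were seen, was 0.96 (adjusted p = 0.0645).

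Of 16 receptors tested 1 rose, where 1.71% of all genes did. Il1r1, the receptor of interleukin 1, read 9.27, 8.98 and 8.93 in the pharyngeal pools and 8.12, 8.24 and 8.02 in the limb pools. Its difference was 0.93 (SE 0.19, limma adjusted p = 0.0490) and lay between 0.78 and 1.07 over the alternatives. It passed in 0 of 6 fits without 1 pool (limma, highest adjusted p = 0.216). It did not pass with median scaling (adjusted p = 0.0566) or with a replicate block (adjusted p = 0.123). Of 12 ligands 3 were tested and none passed at an adjusted p under 0.05; the 2 brightest were Tnfsf12 (-0.33) and Cd40lg (-0.11).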

How the data were processed

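The authors deposited unnormalized probe intensity values and, for each probe and array, a detection p-value, which per the series' design text counts the negative controls that outshone it, as a proportion. They also deposited a processed intensity table on a linear scale, used as an alternative. GenomeStudio 2011.1 is named in the submitters' processing notes, and the design text speaks of background correction, which the processed table does not show. No source used here gives the build of the probe annotation. Symbols came from the platform annotation (34885 of 45281 probes name 1 gene, 18 several, 10378 none), and 34807 probes matched the reference gene table by Entrez identifier.

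Intensities were background-corrected with limma 3.58.1 in R 4.3.3 (normexp from the detection p-values, offset 16), quantile normalized and put on a log2 scale. Kept probes were those detected (p under 0.05) by 3 or more of the 6 arrays, and each gene was read from its brightest kept probe. Differences are pharyngeal minus limb from lmFit and eBayes over 11262 genes (2-sided, Benjamini-Hochberg, threshold 0.05); SE is the moderated standard error. The number of arrays, 3 per group, limits the precision. Detection p was under 0.05 for 20919 to 22793 probes per array.

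The members, the lists and the rule for named genes were chosen with earlier results of these data known. The rule named each member, up to 6 genes past the threshold per pathway list by adjusted p (otherwise the 2 brightest), the 2 largest differences per marker list, and the 3 profiles nearest to Tnfaip2, Nfkbia and Nfkbiz. Alternatives covered background, offset (50), normalization, the processed table, filter, probe rule, variance model, array weights, a replicate block and leaving out each pool. The fit was tested on simulated data.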

Additional observations from a re-analysis of the deposited data

How the results depend on the processing

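Over 17 alternatives the members gave 151 differences, of which 150 kept their sign; the exception was Nfkbib without limb pool 3 (0.06), and 12 moved by more than the spread between pools: 4 for Nfkb2, 3 for Relb, 1 for Nfkbia and 4 for Tnfaip2. Tnfaip2 and Nfkbib could not be tested with probes above background on all 6 arrays. The count of all genes past the threshold was 374, with 568 under a trended, robust variance and 139 with the replicate block, and it was 58 to 361 without 1 pool. With the replicate block 1 member and 6 other pathway genes passed; without 1 pool the ranges were 1 to 3 members and 3 to 9 other pathway genes. Deviations of pools with the same number correlated at -0.01 to 0.00, and those with different numbers at -0.02 to 0.03. Such correlations cannot show whether pools of the same number shared animals or a day of sorting, so any pairing is unknown. Calls higher and lower were 193 and 181, and 211 and 123 with median scaling. Of 11 named pathway genes 3 (Rel, Ccl2 and Cxcl2) passed in every alternative. Nearness to background limits Relb, Nfkbib and the limb values of Tnfaip2.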
